A study of Drosophila melanogaster with 8 samples.

Results

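The genes described here encode the cadherins of the Drosophila adherens junction, the catenins that bind them and their junction partners. They were taken by exact symbol from the count tables, and all 8 were found among 14161 listed genes: shg, CadN, CadN2, arm, alpha-Cat, p120ctn, ed and pyd. Messenger RNA was sequenced from 8 libraries of S2R+ cells, which are cultured Drosophila cells that resemble blood cells. In every group the cells were transfected with Actin:dCas9-VPR, in which a Cas9 that does not cleave DNA is joined to a transcriptional activator and is expressed from an actin promoter. The 4 groups of 2 libraries differed in their guide RNAs. They received control guides, 5 guides to the region upstream of twi (Twist guides), 5 guides to the region upstream of sna (Snail guides), or both pools together. The labels name the target of the control guides as a luciferase reporter promoter in 1 place and call them non-targeting in another. The cells were 1 line without a stated clone, and the share of cells that took up the plasmids and the time after transfection are not stated in the labels.

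Classical cadherins join neighbouring cells by binding the same cadherin on the next cell, and their tails bind beta-catenin and p120-catenin. Beta-catenin binds alpha-catenin, which connects the complex to actin. In the fly embryo the ectoderm carries E-cadherin, encoded by shg. The mesoderm, which is specified by Twist and Snail, loses shg transcription and gains N-cadherin, encoded by CadN, as it becomes mesenchymal. Snail is a repressor of shg in that tissue. The comparisons below ask what the RNA of these genes did when twi and sna were activated in a cell line that is not an epithelium.

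Total counts ranged from 10752993 to 13351166 per library. No read of twi was counted with control or Snail guides (0 counts in each of these 4 libraries), and it stood at 27.3 ± 1.36 CPM (counts scaled to the library's total; SD, n = 2) in the Twist libraries and 13.2 ± 0.711 CPM where both pools were given. sna had 2 counts over the control libraries and 1 over the Twist libraries, against 99.4 ± 3.14 CPM in the Snail libraries and 123 ± 1.24 CPM where both pools were given. The control pair was the least alike: the SD over genes of the log2 difference between the 2 libraries was 0.338 with control guides and 0.209 to 0.236 in the other groups. In the control pair that difference followed transcript length, with a Spearman correlation of 0.35 across 7895 genes, which are not independent replicates. The same correlation was -0.2 in the Twist pair, 0.071 in the Snail pair and -0.18 in the pair with both pools. The 3 comparisons with control share the control libraries. Each result of the tested junction genes against control is therefore given with and without each control library. Of 8 hemocyte markers, crq, Pxn and srp had 2029 to 2340, 800 to 1266 and 1414 to 1987 counts per library. The others, eater, He, Hml, nimC1 and Sr-CI, had at most 5, 3, 19, 2 and 46. The summed level of the hemocyte markers was 445 to 483 CPM with control guides and 398 to 424 CPM in the other libraries. Pxn, a peroxidasin of the matrix, was lower with both pools than with control guides, at a log2 difference of -0.37 ± 0.09 (SE; edgeR adjusted p = 0.0499). That call was lost in 9 of the other settings tried. Of 6 epithelial markers, cora had at least 5520 counts in every library, and grh, a transcription factor of epithelia, had 1 to 3. Between them, crb had 395 to 811, Nrx-IV 524 to 802, sdt 172 to 299 and Fas3 16 to 47. The summed epithelial markers stood at 615 to 767 CPM with control guides and 628 to 712 CPM elsewhere. Among 3 neuronal markers the sum was 11.8 to 14.6 CPM with control guides, 12.6 to 13 with Twist, 12.3 to 13.4 with Snail and 15.8 to 17.2 with both pools. From control guides to both pools the means were 4.52 and 7.23 CPM for brp, 8.21 and 8.41 for elav, and 0.461 and 0.888 for Syt1. None of the 3 was called by edgeR in any contrast, beside 0.174% to 1.57% of all genes. The part of other cell types in the values below was not tested, and in bulk RNA fewer cells of a type and less RNA per cell cannot be told apart.

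Among these 8 genes the catenins were abundant and the cadherins were not. Per kb of annotated exon, so that genes can be compared, arm (beta-catenin) had the highest level, with a mean of 175 CPM per kb over the 8 libraries and a range of 163 to 208. p120ctn, which binds the cadherin tail next to the membrane, followed at 131.5 CPM per kb (118 to 141.5), and alpha-Cat at 83.4 (66.9 to 108). In each of the 8 libraries arm was above p120ctn, by 1.21 to 1.52 times, and p120ctn was above alpha-Cat, by 1.27 to 2.03 times. These 3 ranges did not overlap. pyd, the fly homologue of the ZO-1 scaffold, stood far lower at 4.31 CPM per kb (3.67 to 5.63). shg stood at 3.23 (2.59 to 4.41), so their ranges overlapped, although pyd was above shg in 8 of 8 libraries. ed, an immunoglobulin-domain adhesion molecule that joins adherens junctions with shg, stood at 1.02 CPM per kb (0.698 to 1.29). Per kb, shg was 1.24% to 2.71% of arm in the same library. The lowest of these percentages was in control replicate 1 and the highest in Twist replicate 2. alpha-Cat was 37.2% to 62.2% of arm, with the 2 control libraries at 38.5% and 62.2%, near the ends of that range. The lengths are those of the BDGP6.54 annotation. Per kb of the longest transcript in place of all exons, pyd stood 1.88 to 3.1 times above shg, against 1.02 to 1.68 times per kb of exon.

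**Figure D1:**
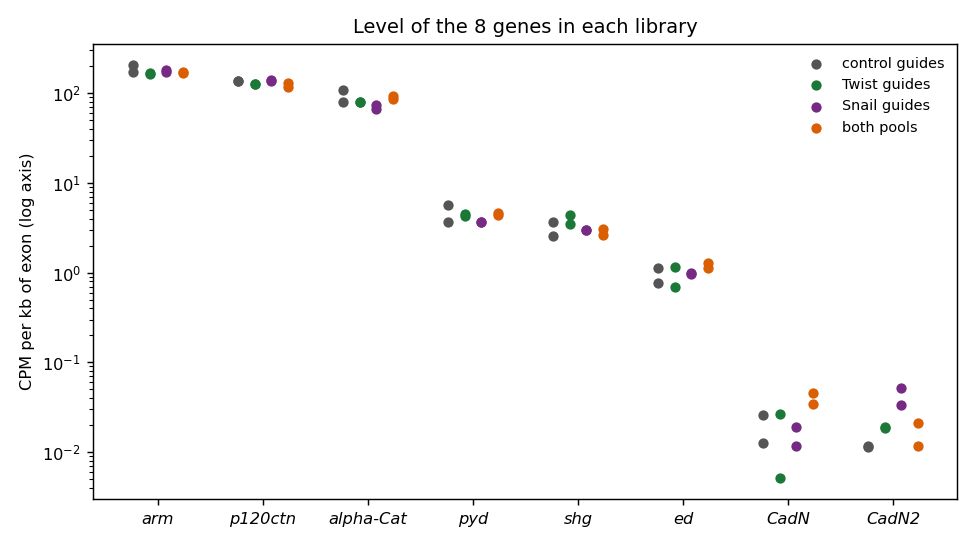
CPM per kb of annotated exon on a log axis for the 8 genes, ordered by mean level, with 1 point per library coloured by guide group. arm, p120ctn and alpha-Cat lie between 66.9 and 208, pyd, shg and ed between 0.698 and 5.63, and CadN and CadN2 at 0.0522 or below.

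Both N-cadherin genes were near the detection limit in every group. CadN (FBgn0015609, chromosome 2L, 17647053 to 17778340 in BDGP6.54) and CadN2 (FBgn0262018, chromosome 2L, 17786971 to 17875247) lie 8630 bp apart on the minus strand. CadN guides axons and carries adhesion in the mesoderm and nervous system, and CadN2 acts with it in photoreceptor axons. CadN had 2 and 4 counts in the control pair, 5 and 1 in the Twist pair, 3 and 2 in the Snail pair, and 6 and 7 where both pools were given. The libraries with both pools were the highest and lay above all 6 others, each by at least 1 count. Summed over a group, CadN had 6 counts with control guides (exact 95% Poisson interval 2.2 to 13.1) and 13 with both pools (6.92 to 22.2), and these intervals, which cover counting error only, overlapped. CadN2 had 1 and 1 counts in the control pair, 2 and 2 in the Twist pair, 3 and 5 in the Snail pair, and 2 and 1 where both pools were given. Here the Snail libraries were the highest, at 8 counts together (3.45 to 15.8), against 2 with control guides (0.242 to 7.22). Both genes were left out of the test by the filter on low counts. Tested without a filter, among 11947 genes, CadN had edgeR adjusted p-values of 0.505 to 1 over the 7 contrasts and CadN2 of 0.642 to 1. No difference in these counts passed at this depth, and how large a difference could have been detected was not tested. The CadN level with both pools was 0.573 ± 0.104 CPM (SD, n = 2).

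The 6 other genes were tested in edgeR's quasi-likelihood fit of all 8 libraries, with Benjamini-Hochberg adjustment over 8029 genes in each of 7 contrasts. None of them passed an adjusted p of 0.05 in any contrast, and none did in DESeq2. Statements below that groups did not overlap, or that a difference held in 2 of 2 libraries, only describe the values. With 2 libraries per group such separation is common without any effect, and its share over all tested genes was not counted. With Twist guides against control 0 of 6 passed, beside 0.934% of all tested genes, and 1 of 6 had an unadjusted p under 0.05, beside 8.28% of all. With Snail guides against control 0 of 6 passed, beside 0.324%, and 1 had an unadjusted p under 0.05, beside 14% of all. With both pools against control 0 of 6 passed, beside 1.57%, and 0 had an unadjusted p under 0.05, beside 16.5%. For both pools against Twist guides the counts were 0 passed, beside 1.05%, and 1 unadjusted, beside 18.2%. For both pools against Snail guides they were 0, beside 0.909%, and 2, beside 18.4%. For Twist against Snail guides they were 0, beside 1.08%, and 1, beside 11.9%. The non-additive response, which is the effect of both pools beyond the sum of the single pools on the log2 scale, gave 0, beside 0.174%, and 1, beside 14.6%. The libraries with both pools held less twi than the Twist libraries (13.2 against 27.3 CPM) and more sna than the Snail libraries (123 against 99.4 CPM). The part of these levels in the contrasts with both pools was not tested. The median log2 difference from control over the 6 genes was -0.09 for Twist, -0.10 for Snail and -0.10 for both pools, where the medians over all genes were -0.01, 0.00075 and -0.0063.

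**Figure D2:**
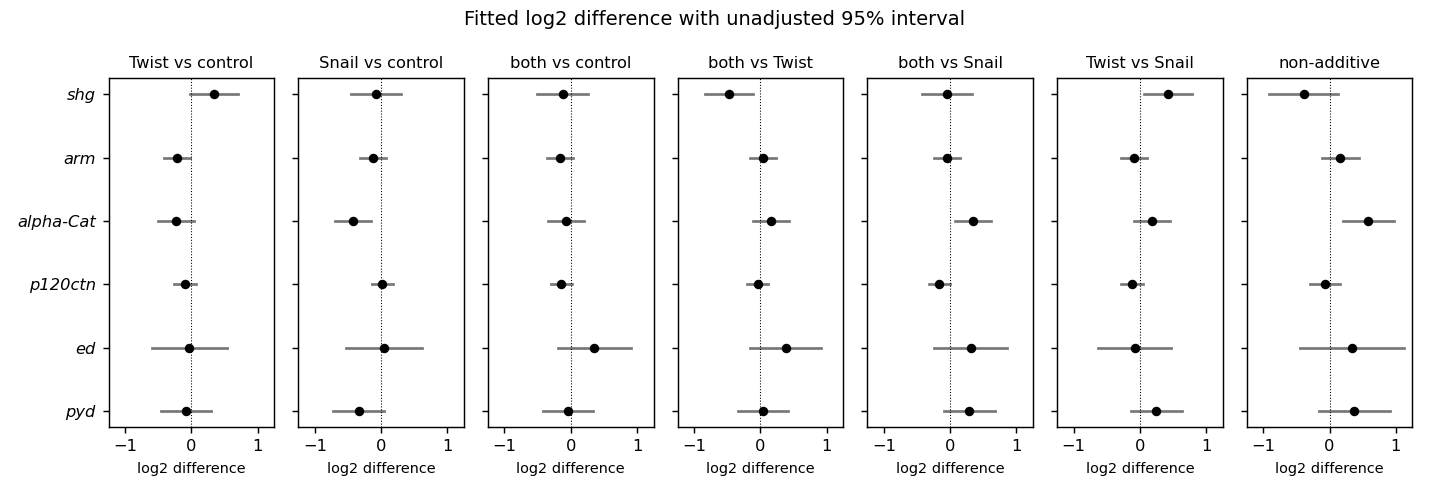
Fitted log2 difference (points) with its unadjusted 95% interval (lines) for the 6 tested genes in each of the 7 contrasts, with 0 marked by a dotted line. The intervals that leave out 0 belong to arm, shg, alpha-Cat and p120ctn, and none of these passed after adjustment.

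shg (FBgn0003391, chromosome 2R, 21049654 to 21057197, minus strand), the E-cadherin gene, had its highest mean with Twist guides, and with Snail guides it lay between the 2 control libraries. Its level was 16.6 and 23.5 CPM in the control pair, 22.6 and 28.2 in the Twist pair, 19.0 and 18.9 in the Snail pair, and 19.8 and 16.9 where both pools were given. The libraries with both pools also lay within the range of the control libraries, and the lower Twist library also lay below the higher control library. Against control the log2 difference was 0.34 ± 0.16 with Twist guides (SE; 95% interval -0.02 to 0.71; edgeR adjusted p = 0.63). It was -0.08 ± 0.17 with Snail guides (-0.45 to 0.30; adjusted p = 0.866) and -0.12 ± 0.17 with both pools (-0.50 to 0.25; adjusted p = 0.775). The lower bound of the Snail interval, in log2 units, is the largest reduction that it allows. With Twist guides the difference was 0.11 without control replicate 1 (adjusted p = 0.764) and 0.61 without control replicate 2 (adjusted p = 0.0209), where 6.17% of all genes were called. With Snail guides these values were -0.31 (adjusted p = 0.176) and 0.19 (0.74), and with both pools -0.35 (0.129) and 0.15 (0.646).

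Among the groups with activation guides, shg separated the Twist libraries from the others. Both Twist libraries lay above both Snail libraries and above both libraries with both pools. With both pools against Twist guides alone, the log2 difference of shg was -0.47 ± 0.17 (interval -0.83 to -0.11; unadjusted p = 0.0159 and edgeR adjusted p = 0.168), in 2 of 2 libraries. It was 0.42 ± 0.16 higher with Twist than with Snail guides (0.06 to 0.78; edgeR adjusted p = 0.37), in 2 of 2 libraries. Both pools and Snail guides alone differed by -0.05 ± 0.17 (-0.42 to 0.33; edgeR adjusted p = 0.907). In a fit of only the 6 libraries with activation guides, chosen after the values were seen because the control libraries lay apart, the difference between both pools and Twist guides was -0.47 ± 0.12 (adjusted p = 0.0187). That between Twist and Snail guides was 0.42 ± 0.12 (adjusted p = 0.0296). That fit called 12.1% and 10.5% of all genes in these contrasts. Taken as the first and second difference, both also passed without control replicate 1 or 2 alone. Those fits nearly repeat the fit of 6 libraries and are not separate checks. These contrasts use no control library, and a lone one adds nothing to the estimated spread. Without Twist replicate 2, which held the highest shg value, the first difference was -0.30 (adjusted p = 0.89) and the second 0.25 (0.779). The first also passed without a filter on low counts (adjusted p = 0.0351, 3.51% of all genes called). With only the 4 libraries compared both passed (0.0397 and 0.0405, 8.93% called in each). Neither passed after correction for transcript length.

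**Figure D3:**
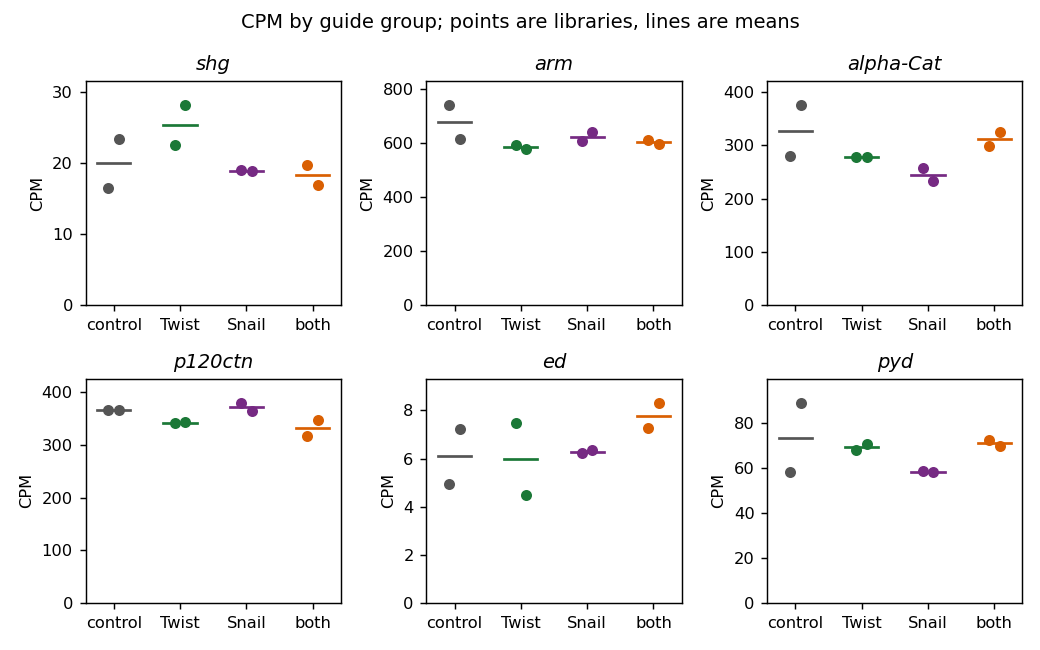
CPM on a linear axis from 0 for the 6 tested genes, with 1 point per library in order of replicate and a line at the mean of each group of 2. The Twist libraries are highest for shg, at 22.6 and 28.2 CPM, beside a control library at 23.5, and the Snail libraries are lowest for alpha-Cat, at 257 and 233 CPM.

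arm (FBgn0000117, chromosome X, 1891401 to 1900646) encodes the beta-catenin of both the junction and the Wingless signal. Its level was 742 and 617 CPM in the control pair, 593 and 580 in the Twist pair, 609 and 641 in the Snail pair, and 610 and 598 where both pools were given. Control replicate 1 stood above the 7 other libraries, which lay between 580 and 641 CPM. Both Twist libraries and both libraries with both pools lay below both control libraries, while the Snail libraries overlapped with them. The log2 difference from control was -0.21 ± 0.09 with Twist guides (unadjusted p = 0.0352 and edgeR adjusted p = 0.553), -0.12 ± 0.09 with Snail guides (edgeR adjusted p = 0.569) and -0.17 ± 0.09 with both pools (edgeR adjusted p = 0.369). With control replicate 1 left out these were -0.07, 0.02 and -0.03, with adjusted p-values of 0.685, 0.887 and 0.826. Without control replicate 2 they were -0.34 (adjusted p = 0.00665), -0.25 (0.15) and -0.30 (0.0182), where 6.17%, 0.805% and 6.68% of all genes were called. Between the groups with activation guides arm differed by at most -0.09 ± 0.09, for Twist against Snail guides (interval -0.29 to 0.10; edgeR adjusted p = 0.674). The annotated arm locus overlaps mRpL16 on the other strand by 82 bp, and no label states whether counting used the strand.

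alpha-Cat (FBgn0010215, chromosome 3L, 23318646 to 23338100), which ties the cadherin complex to actin, had the smallest unadjusted p of the 6 genes over the 7 contrasts, 0.00659 for Snail guides against control. Its level was 279 and 376 CPM in the control pair, 278.2 and 278.4 in the Twist pair, 257 and 233 in the Snail pair, and 299.7 and 325 where both pools were given. The Snail libraries were the lowest of the 8 and did not overlap with any other group. The Twist libraries lay just below the lower control library, and the libraries with both pools lay between the control libraries. The log2 difference from control was -0.42 ± 0.12 with Snail guides (interval -0.69 to -0.14; edgeR adjusted p = 0.2), -0.23 ± 0.12 with Twist guides (edgeR adjusted p = 0.679) and -0.07 ± 0.12 with both pools (edgeR adjusted p = 0.838). Without control replicate 1 these were -0.62 (adjusted p = 8.01e-06), -0.43 (0.00168) and -0.27 (0.0276), and 17.5%, 4.05% and 13.9% of all genes were called. Without control replicate 2 they were -0.19 (adjusted p = 0.372), -0.01 (0.975) and 0.16 (0.262). The difference between the control libraries was 0.43 on the log2 scale, where the median of genes of like transcript length (bin 8 of 10 bins with equal numbers of genes) was 0.07.

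Between both pools and Snail guides alone, alpha-Cat differed by 0.35 ± 0.12, higher with both pools (interval 0.08 to 0.62; edgeR adjusted p = 0.179), in 2 of 2 libraries. In the fit of the 6 libraries with activation guides this was 0.35 ± 0.07 (adjusted p = 0.00132), where 13.9% of all genes were called. It also passed without control replicate 1 or 2 alone, in fits that nearly repeat that one and are not separate checks. It was 0.32 (adjusted p = 0.15) after correction for transcript length. The non-additive response of alpha-Cat was 0.58 ± 0.17 (interval 0.20 to 0.97; edgeR adjusted p = 0.189). Each single pool had both libraries below both control libraries, while the libraries with both pools lay above both libraries of either single pool. Without control replicate 1 the non-additive response was 0.78 (adjusted p = 2.1e-05), where 11.5% of genes were called, and without control replicate 2 it was 0.35 (adjusted p = 0.0518). Without a filter on low counts the Snail difference from control (adjusted p = 0.0168), the difference between both pools and Snail guides (0.0368) and the non-additive response (0.0202) each passed, where 1.82%, 3.65% and 1.98% of all genes were called. With only the 4 libraries compared, the difference between both pools and Snail guides had an adjusted p of 0.000434, where 19.6% were called.

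**Figure D4:**
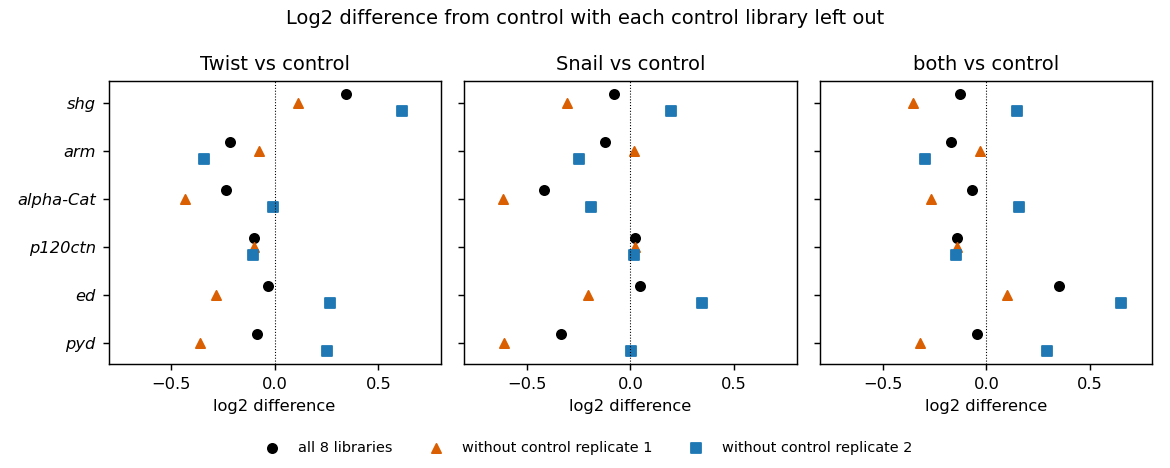
Log2 difference from control for the 6 tested genes with Twist guides, Snail guides and both pools, with all 8 libraries (circles), without control replicate 1 (triangles) and without control replicate 2 (squares). For alpha-Cat with Snail guides the 3 values are -0.42, -0.62 and -0.19, for pyd they are -0.33, -0.61 and 0.005, and for p120ctn the symbols lie nearly on top of each other.

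pyd (FBgn0262614, chromosome 3R, 8827068 to 8931896) encodes the scaffold Polychaetoid, which links the junction to actin and to the scaffold Canoe. Its level was 58.0 and 88.8 CPM in the control pair, 67.7 and 70.6 in the Twist pair, 58.5 and 57.9 in the Snail pair, and 72.4 and 69.9 where both pools were given. The Snail libraries were below the Twist libraries and those with both pools, and control replicate 1 lay between the Snail libraries. Control replicate 2 was the highest of the 8. The log2 difference from control was -0.33 ± 0.17 with Snail guides (edgeR adjusted p = 0.411), -0.09 ± 0.17 with Twist guides (edgeR adjusted p = 0.956) and -0.04 ± 0.17 with both pools (edgeR adjusted p = 0.936). When control replicate 1 was left out these were -0.61, -0.36 and -0.32, and without control replicate 2 they were 0.005, 0.25 and 0.29. The values without control replicate 1 passed in the fits given above for alpha-Cat, in which 1 library stood for the control group. Those without control replicate 2 did not pass. The same log2 difference between the control libraries was 0.61 for pyd, where the median of genes in its bin of length (bin 10 of 10) was 0.27. pyd stood 0.29 ± 0.17 above the Snail guides when both pools were given (edgeR adjusted p = 0.384) and 0.25 ± 0.17 higher with Twist than with Snail guides (edgeR adjusted p = 0.55). In the fit of 6 libraries these were 0.29 ± 0.07 (adjusted p = 0.0118) and 0.25 ± 0.07 (adjusted p = 0.0322), where 13.9% and 10.5% of all genes were called. With only the 4 libraries compared the adjusted p-values were 0.00439 and 0.0453, where 19.6% and 8.93% of all genes were called. After correction for transcript length, fitted on all 8 libraries, the differences were 0.02 (adjusted p = 0.93) and 0.06 (adjusted p = 0.844), and that between Snail guides and control was -0.14 (adjusted p = 0.552). The non-additive response of pyd was 0.37 ± 0.23 (edgeR adjusted p = 0.48). It was 0.65 without control replicate 1, where it passed in the same fit as that of alpha-Cat. Its longest annotated transcript has 8533 bp. pyd and alpha-Cat varied together over the 8 libraries (Pearson r = 0.88 on log2 CPM, a description over libraries that share groups), the highest r among the 15 pairs of tested genes, while shg and arm had the lowest, at -0.60. Another entry of the count tables, CG9731, is an older name of the pyd locus and had 6 counts in all, and CG8379 overlaps pyd by 212 bp on the other strand.

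p120ctn (FBgn0260799, chromosome 2R, 4595288 to 4609492) encodes p120-catenin, which binds cadherin tails, and was the most even of the genes across libraries. Its level was 366.9 and 366.4 CPM in the control pair, 341 and 344 in the Twist pair, 380.0 and 364 in the Snail pair, and 317.5 and 347 where both pools were given. The highest value was 1.2 times the lowest, and the control libraries differed by -0.002 on the log2 scale. Both Twist libraries and both libraries with both pools lay below both control libraries. Against control the log2 difference was -0.10 ± 0.07 with Twist guides (interval -0.26 to 0.06; edgeR adjusted p = 0.83), 0.02 ± 0.07 with Snail guides (-0.14 to 0.18; edgeR adjusted p = 0.919) and -0.14 ± 0.07 with both pools (-0.30 to 0.02; edgeR adjusted p = 0.357). With either control library left out these differences stayed within -0.15 and 0.02. Both pools against Snail guides gave -0.16 ± 0.07 (unadjusted p = 0.047 and edgeR adjusted p = 0.265). In none of the 7 contrasts did p120ctn pass under any of the settings tried.

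ed (FBgn0000547, chromosome 2L, 4031377 to 4115749) encodes Echinoid, which binds Canoe and shares junctions with E-cadherin. Its level was 4.95 and 7.24 CPM in the control pair, 7.47 and 4.48 in the Twist pair, 6.21 and 6.34 in the Snail pair, and 7.25 and 8.32 where both pools were given. The Twist libraries enclosed both control libraries, and the libraries with both pools lay just above the higher control library. With 54 to 98 counts per library, its intervals were the widest. The log2 difference from control was 0.35 ± 0.25 with both pools (interval -0.20 to 0.90; edgeR adjusted p = 0.523), -0.03 ± 0.26 with Twist guides (-0.59 to 0.53; edgeR adjusted p = 0.991) and 0.04 ± 0.26 with Snail guides (-0.52 to 0.61; edgeR adjusted p = 0.953). Leaving out control replicate 1, these were 0.10, -0.28 and -0.20, and without control replicate 2 they were 0.65, 0.27 and 0.34. ed passed in none of the 7 contrasts under any setting tried.

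Summed over the 8 genes, the RNA of the complex was 1470 and 1480 CPM in the control libraries and 1310 to 1360 CPM in the 6 libraries with activation guides. The sum is made mostly of arm, p120ctn and alpha-Cat. The control libraries reached it differently, since arm was higher in replicate 1 (742 against 617 CPM) and alpha-Cat in replicate 2 (376 against 279 CPM).

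Other genes of the cadherin family, junction proteins that link or regulate the complex and genes of the Wingless pathway were examined beside them. Of 13 other cadherin genes 8 were tested, and 0 were called by edgeR or DESeq2 in any of the 7 contrasts, beside 0.174% to 1.57% of all genes by edgeR. Between 0 and 2 of the 8 had an unadjusted p under 0.05, the 2 with Snail guides against control, beside 14% of all genes there. Their median log2 difference from control was -0.17 for Twist, -0.17 for Snail and 0.18 for both pools. By mean CPM per kb of exon, cals (32.0), kug (14.2), Cad87A (6.77) and Cad99C (3.53), named here by level, stood above shg (3.23). The rest of the 13 stood below shg. Of the 8 tested, Cad87A had the smallest p, at -0.52 ± 0.17 for Snail guides against control (edgeR adjusted p = 0.255). It was -0.79 without control replicate 1 (adjusted p = 5.88e-06, where 17.5% of all genes were called) and -0.18 without control replicate 2 (adjusted p = 0.577). Its control libraries stood at 44.8 and 68.6 CPM and its Snail libraries at 40.5 and 38.6 CPM, so the groups did not overlap. Cad96Ca, a receptor tyrosine kinase with a cadherin domain, was -1.24 ± 0.47 with Twist against Snail guides (edgeR adjusted p = 0.353), and cals, the calsyntenin gene, was -0.29 ± 0.12 with Snail guides against control (edgeR adjusted p = 0.337). For cals the value was -0.43 without control replicate 1 (adjusted p = 0.0185, in the same fit with 17.5% called), -0.14 without control replicate 2 (0.72) and -0.17 with the length trend removed (0.522).

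Of 16 junction linkers and regulators, 16 were tested and 0 were called by edgeR in any contrast, beside the same 0.174% to 1.57%. Between 0 and 6 had an unadjusted p under 0.05, the 6 with both pools against control, beside 16.5% of all genes there. DESeq2 called ena, an actin regulator named here after its values were seen, with both pools against control and against Twist guides, beside 2.04% and 1.97% of all genes, and zip for both pools and for Twist guides, each against Snail guides, beside 2.28% and 1.11%. Their medians against control were -0.06 for Twist, -0.10 for Snail and -0.11 for both pools, with 4, 3 and 3 of the 16 above 0, beside 47.1%, 50.1% and 48.6% of all genes. zip, the heavy chain of non-muscle myosin, stood at 747 and 1039 CPM in the control pair, 1101 and 993 in the Twist pair, 684 and 716 in the Snail pair, and 947 and 954 where both pools were given. The Twist libraries lay above the Snail libraries, by 0.58 ± 0.13 (edgeR adjusted p = 0.103). That difference was called by DESeq2 (adjusted p = 0.000399) and with the length trend removed (0.43, adjusted p = 0.0207). It had adjusted p-values of 3.44e-06 and 3.74e-06 without control replicate 1 or 2, where 10.4% of all genes were called in each case. baz, the Par3 scaffold that places junctions, was -0.35 ± 0.09 with Twist guides against control (edgeR adjusted p = 0.12). It was -0.27 without control replicate 1 (adjusted p = 0.109) and -0.43 without control replicate 2 (0.00525, where 6.17% of all genes were called). sdk, which marks vertices where cells meet, was -0.65 ± 0.19 with Snail guides against control (edgeR adjusted p = 0.181). It was -0.90 without control replicate 1 (adjusted p = 0.000648, where 17.5% of all genes were called) and -0.36 without control replicate 2 (0.488).

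In the Wingless pathway, through which arm signals to the nucleus, 13 of 14 genes were tested and 0 were called by edgeR in any contrast, beside the same share of all genes. Between 0 and 5 had an unadjusted p under 0.05, the 5 with Snail guides against control, beside 14% of all genes there. The medians against control were 0.03, -0.02 and -0.10 in the same order of guides. pan, the TCF factor that arm binds, stood at 34.4 and 51.6 CPM in the control pair, 39.6 and 37.2 in the Twist pair, 30.6 and 28.1 in the Snail pair, and 44.8 and 48.5 where both pools were given. Its libraries with both pools lay above the Snail libraries, by 0.67 ± 0.17 (edgeR adjusted p = 0.0896), and by 0.40 with the length trend removed (0.0824). Of the 13 genes, DESeq2 called pan in that contrast (adjusted p = 0.0138, beside 2.28% of all genes) and no other gene in any. Both pools stood below Twist guides for sgg, the GSK3 kinase that marks arm for destruction (-0.31 ± 0.08, edgeR adjusted p = 0.0968), and for fz, a Wnt receptor (-0.57 ± 0.17, edgeR adjusted p = 0.119). In the fit of the 6 libraries with activation guides the adjusted p-values were 0.00584 for sgg and 0.0255 for fz, where 12.1% of all genes were called. Without control replicate 1 or 2 alone, sgg, fz and the pan difference also passed. Those fits nearly repeat the fit of 6 libraries and are not separate checks.

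Of 3 genes commonly used as read-outs of arm-dependent transcription, nkd rose with Twist guides and the other 2, fz3 and Notum, were not called in any contrast. nkd encodes Naked cuticle, a feedback inhibitor of Wingless signalling. Its level was 2.93 and 4.46 CPM in the control pair, 7.47 and 8.89 in the Twist pair, 5.04 and 3.84 in the Snail pair, and 5.67 and 5.55 where both pools were given. The Twist libraries were the highest of the 8 and did not overlap with any other group. The rise against control was 1.15 ± 0.23 on the log2 scale (edgeR adjusted p = 0.0362), in 2 of 2 libraries, where 0.822% of all genes were called higher. Without control replicate 2 it was 1.48 (adjusted p = 0.00232). It was not called by DESeq2 (adjusted p = 0.0739), without control replicate 1 (0.88, adjusted p = 0.0583), without Twist replicate 1 (0.107) or 2 (0.306), or without Snail replicate 1 (0.0533) or 2 (0.0542). Nor was it called without replicate 1 (0.0788) or 2 (0.075) of both pools, or with only the groups compared (0.128). With both pools nkd stood at 0.60 ± 0.25 against control (edgeR adjusted p = 0.256) and -0.55 ± 0.22 against Twist guides (edgeR adjusted p = 0.208).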

How the data were processed

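RNA of 8 libraries of transfected S2R+ cells was analysed, 2 for each of 4 guide groups named in the sample titles. The authors deposited 1 table of raw read counts by gene symbol for each library. TopHat2 (version 2), Bowtie2, HTSeq and DESeq are named in the submitters' processing notes without role or order, and neither the genome build and annotation nor how strand and ambiguous reads were handled is given in the sources used here. Coordinates and lengths were taken by symbol from Ensembl 115 (BDGP6.54), where 10669 symbols were current, 3235 were older names and 257 had no match.

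Genes were tested in R 4.3.3 with edgeR 4.0.16, which uses limma 3.58.1. The steps were filterByExpr with a minimum count of 10 (8029 genes kept, 6132 removed), TMM factors (0.983 to 1.02) and a robust quasi-likelihood fit of the 4 groups with 4 residual degrees of freedom, followed by Benjamini-Hochberg adjustment at 0.05 in each contrast. An adjusted p comes from this fit or a named alternative of it, except where DESeq2 1.42.0 is named. A library left alone in its group was taken to vary like the other groups. SE is the size of the log2 difference divided by the root of its F statistic, and 95% intervals are unadjusted. The series calls the replicates biological, and p-values measure the spread between them, pooled over groups, which treats the more distant control pair like the others. CPM are TMM-normalised, and correlations used log2(CPM + 0.5). Exact Poisson intervals cover counting error only. The fits were checked on simulated data.

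The 8 genes and the lists were chosen with earlier results of these data known. From each other list the text names the genes that passed in any contrast, or else the 3 with the smallest p. Rap1 and nSyb had no match, and Zyx and Zyx102EF are names of 1 gene. Length was corrected by subtracting from each library its lowess trend on length (span 0.3), over 7895 genes, 98.3% of those tested. The other alternatives were to scale by DESeq2 size factors or by library size, to drop the filter or require 1 CPM in 2 libraries, to add the replicate number as a block, to test with DESeq2, to fit only the groups compared, and to leave out each library in turn. Figures used matplotlib 3.10.9 in Python 3.11.15.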

Additional observations from a re-analysis of the deposited data

Results flagged for a closer look

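In alpha-Cat the effect of each single pool against control and its effect when added to the other pool had opposite directions in every library, and the non-additive response was 0.58 ± 0.17 on the log2 scale, which did not pass the edgeR test of the difference (adjusted p = 0.189). The same rule was applied to the genes named from the other lists because they passed or had the smallest p. Among these, 3 showed such opposite directions for 1 of the pools: pan, at 0.83 ± 0.23 (adjusted p = 0.172), baz, at 0.26 ± 0.12 (adjusted p = 0.361), and fz, at -0.55 ± 0.25 (adjusted p = 0.331). The rest of the listed genes were not screened, and Cad99C and CkIalpha are examples that also meet the rule for 1 pool. None of the 4 passed the test of the difference. In alpha-Cat the nearest Twist and control libraries stood at 278.4 and 279.3 CPM. The hemocyte marker crq, which was not screened, had such directions for each pool. Its levels were 189 and 202 CPM with control guides, 178 and 163 with Twist, 183 and 173 with Snail, and 188.5 and 196.6 with both pools. The share of all tested genes with such directions was not counted.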

How the results depend on the processing

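Of 994 values of single genes compared with an alternative, 892 kept their direction and their side of the threshold, 68 newly passed, 18 no longer passed and 16 changed sign, of which 0 passed. Except where a setting left out samples or genes by its own construction, the cause was not tested. With a library left out in turn, the values that changed sign ran as follows. Against control they ran for Twist guides from -0.44 to 0.29 in ed (positive without control or Twist replicate 2, 0.27 and 0.29) and from -0.36 to 0.25 in pyd (positive without control replicate 2). For Snail guides they ran from -0.31 to 0.19 in shg and from -0.61 to 0.0048 in pyd (positive without control replicate 2), from -0.25 to 0.019 in arm and from -0.20 to 0.34 in ed (sign changed without control replicate 1), and from -0.014 to 0.052 in p120ctn (negative without Snail replicate 1). For both pools they ran from -0.35 to 0.15 in shg, from -0.27 to 0.16 in alpha-Cat and from -0.32 to 0.29 in pyd (positive without control replicate 2). Between activated groups they ran from -0.11 to 0.016 in p120ctn for both pools against Twist guides, from -0.16 to 0.060 in shg for both pools against Snail guides, and from -0.49 to 0.25 in ed for Twist against Snail guides. Length correction changed the sign in shg for Snail guides against control (0.057) and in pyd for both pools against Twist guides (-0.032).

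Counts of genes called are given in the order Twist, Snail and both pools against control, both pools against Twist and against Snail guides, Twist against Snail guides, and the non-additive response. With no filter they were 128, 218, 353, 419, 436, 198 and 236. With only the groups compared they were 39, 6, 56, 710, 1549 and 705 in the first 6. With the 6 libraries with activation guides, a setting chosen after seeing the data, they were 969, 1112 and 839 in the 3 contrasts without control. DESeq2 called 78 with Snail guides against control, 158 and 183 for both pools against Twist and against Snail guides, and 64 for the non-additive response. Length correction called 162 for both pools against Twist guides and 37 for the non-additive response. With a library left out the counts ran from 41 to 506, 6 to 1443, 30 to 1148, 9 to 975, 9 to 1135, 39 to 858 and 1 to 948. Of the 6 junction genes tested, 0 to 2 were called with a library left out, and 0 to 1 for both pools against Twist guides. With no filter 1 was called for Snail guides against control, for both pools against Twist and against Snail guides, and for the non-additive response. Beside them 1.82%, 3.51%, 3.65% and 1.98% of all genes were called. With only the groups compared, and with the 6 libraries, 1 was called for both pools against Twist guides, 2 against Snail guides, and 2 for Twist against Snail guides. The shares of all genes there were 8.93%, 19.6% and 8.93% with only the groups compared, and 12.1%, 13.9% and 10.5% with the 6 libraries.

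The replicate numbers were not shown to pair the libraries, since the deviations of same-numbered libraries from their group means had correlations of -0.16 to 0.14. With the replicate number as a block, 76, 35, 119, 98, 55, 87 and 18 genes were called, and 0 of the 6 junction genes in each contrast. Depth limits CadN and CadN2, with at most 7 counts in a library, and ed, with at most 98.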
